A study of Mus musculus with 8 samples.

Results

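Myokines are proteins that skeletal muscle releases to act on the muscle itself or on other organs. Contraction raises the production of many of them, and they have been studied as messengers between working muscle and fat, bone, liver, blood vessels and nerves. Most are made as precursors with a signal peptide, some are shed from the cell surface by proteases, and each acts through receptors that may lie in the muscle or far from it. The genes described here were 10 such factors taken by name: Ostn, Fndc5, Il15, Metrnl, Bdnf, Fgf1, Fgf6, Vegfb, Fstl1 and Erfe. Each was represented by 1 probe set, so that 10 of the 21212 probe sets on the arrays were members.

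The 4 unloaded samples came from female C57BL/6J mice, 7 weeks old, kept for 5 days with the hind limbs suspended so that these bore no weight. The 4 weight bearing samples came from mice of the same strain, sex and age that were not suspended. The RNA was from the gastrocnemius and plantaris muscles, each sample was an independent RNA preparation, and each was hybridised to 1 Affymetrix Mouse Gene 1.0 ST array. Values are log2 expression levels from robust multi-array analysis (RMA), so a difference of 1 is a 2-fold difference. Each probe set has its own affinity, so levels of different genes were not ranked against one another. Levels were set beside those of probe sets for genes that muscle is not known to use only as a rough guide to dimness, and were summed over markers only to compare the groups.

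The arrays had medians between 6.28 and 6.33 on the log2 scale, and arrays correlated at 0.996 to 0.997 within groups and at 0.992 to 0.994 between groups. A gene is called lower or higher in unloaded muscle at an adjusted p under 0.05 (limma, two-sided, adjusted over all probe sets). By this rule 11.0% of all probe sets were lower and 12.8% were higher. Without unloaded replicate 3 the number of higher ones was 1802 instead of 2715. With the dimmest 50% of probe sets removed, 2328 of the remaining 10606 were lower and 2206 higher, larger shares than over all probe sets. At an unadjusted p under 0.05, 3262 of all 21212 probe sets were lower and 4669 were higher. All 4 unloaded arrays lay below all 4 weight bearing arrays for 12.0% of probe sets, and above them for 15.5%. The median difference over all probe sets was 0.04. Of 10 muscle fibre markers 5 were lower and 0 were higher (0 also at an unadjusted p under 0.05). The 5 were the myosin gene Myh2 (-0.79), Casq1 (-0.32), Mb (-0.21), Pvalb (-0.15) and Acta1 (-0.15), while Ckm, Myh4 and Myh1, the muscle creatine kinase and the main fast myosins of this tissue, differed by -0.03, -0.07 and 0.01 and were not called.

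Of the 10 myokine genes, 8 were lower in unloaded muscle and 0 were higher, beside 11.0% lower and 12.8% higher over all probe sets. The 8 were Fstl1, Ostn, Fndc5, Fgf6, Il15, Vegfb, Fgf1 and Metrnl, with differences between -1.10 and -0.23. Bdnf and Erfe were not called and had differences of 0.09 and 0.20. At an unadjusted p under 0.05 the number of higher members was 1, Erfe, beside 4669 of all 21212 probe sets. By the methods' t-test, taken here with unequal variances and Benjamini-Hochberg adjustment, it was 1, Bdnf, beside 1393 of all probe sets. The paper used q-values and reports more genes with increased expression than that. The test in this form therefore does not stand for the paper's own calls. The methods' t-test called 4 members lower instead of 8, without Ostn, Il15, Metrnl and Fgf6. It called 1374 of all probe sets lower. In 7 of the 10 genes every unloaded array lay below every weight bearing array, beside 12.0% of all probe sets, and in 1 gene, Bdnf, every unloaded array lay above, beside 15.5%. The median difference of the 10 genes was -0.40. The members and the gene lists below were chosen with earlier results of these data known, so their shares do not speak for myokines in general. In these bulk samples, fewer cells of a type and less RNA per cell cannot be told apart.

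**Figure D1:**
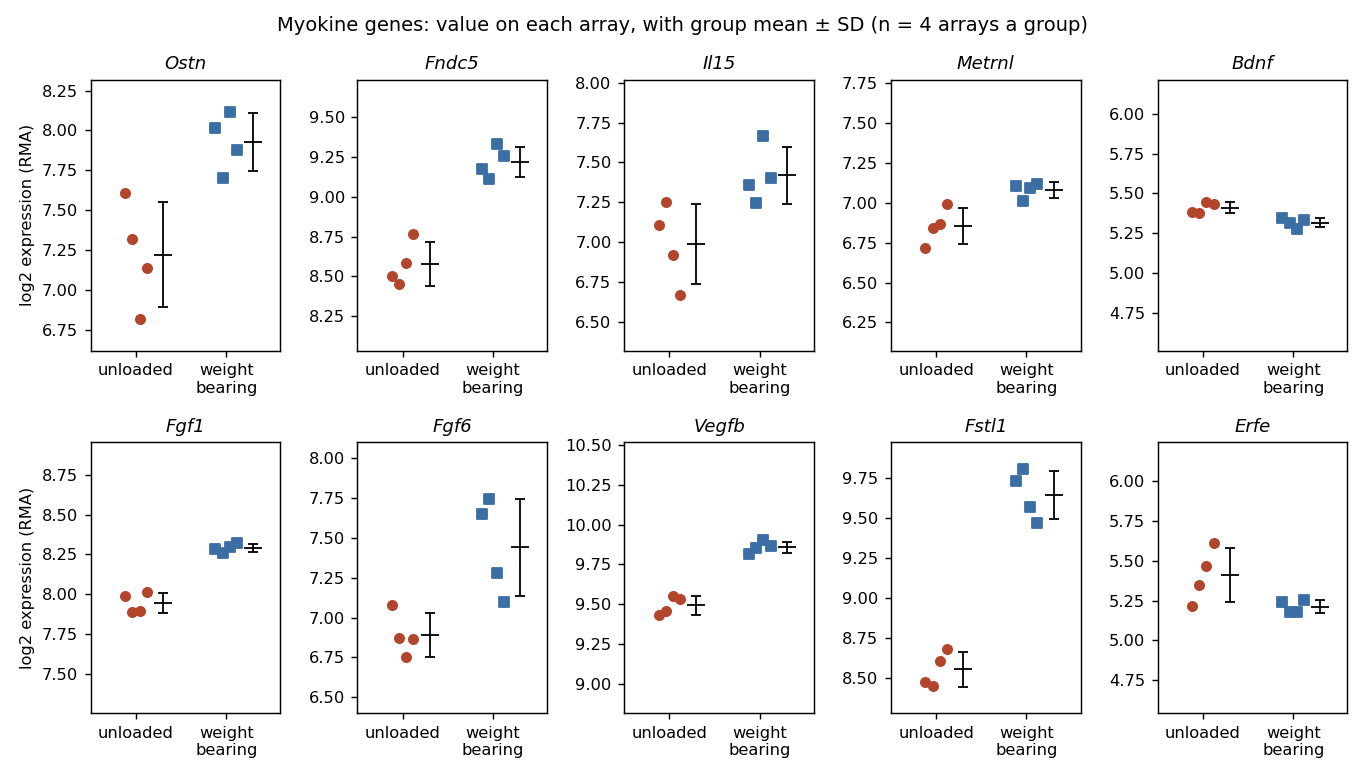
Expression of the 10 myokine genes on each array (log2, RMA), with unloaded arrays as circles on the left and weight bearing arrays as squares on the right of each panel. Horizontal ticks and bars are the group mean and SD (n = 4 arrays), and each panel spans its own range of levels with the same height in log2 units. The circles lie below all squares for Fstl1, Ostn, Fndc5, Fgf6, Vegfb, Fgf1 and Metrnl, overlap them for Il15 and Erfe, and lie above them for Bdnf.

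Fstl1 had the largest difference of the 10. It encodes follistatin-like 1, a secreted glycoprotein of the matricellular kind that is made by muscle, heart and many mesenchymal cells and that binds bone morphogenetic proteins. Its level was 8.47, 8.45, 8.60 and 8.68 on the unloaded arrays, against 9.73, 9.81, 9.57 and 9.47 on the weight bearing arrays. The groups were far apart, with a gap of 0.79 between the highest unloaded and the lowest weight bearing array. The means were 8.55 ± 0.11 in unloaded and 9.65 ± 0.15 in weight bearing muscle (SD, n = 4 each), and the difference of -1.10 (SE 0.08, 95% interval -1.28 to -0.91) is 2.14-fold lower (limma adjusted p = 2.3e-05). The difference was 8.22 times the pooled SD within groups, the highest ratio of the 10 genes, ahead of 7.59 for Vegfb and 7.20 for Fgf1.

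Markers of connective tissue cells moved in the same direction as Fstl1. Of the 8 measured fibroblast markers 5 were lower and 0 higher in unloaded muscle, beside 11.0% lower and 12.8% higher over all probe sets, with a median difference of -1.21. All 8 tendon markers were lower, with a median of -0.73. The summed linear level of the fibroblast markers ranged over 9116 to 9528 in unloaded and 12710 to 14410 in weight bearing muscle, and that of the tendon markers over 5041 to 5573 in unloaded and 7872 to 8745 in weight bearing muscle. The fibroblast markers that were lower were the collagen genes Col1a1, Col1a2 and Col3a1, with Postn and Lum, whereas Dcn (-0.02), Gsn (-0.11) and Pdgfra (-0.11, limma adjusted p = 0.0898) were not called. The unloaded arrays of Pdgfra lay below all weight bearing arrays. None of the markers of either list had a mean below 5.16, the 95th percentile of probe sets for olfactory receptors, which muscle is not known to use. At an unadjusted p under 0.05, 6 fibroblast and 8 tendon markers were lower and 0 of either list were higher. Over all 21212 probe sets, 3262 were lower and 4669 were higher at that threshold. The part of these cells in the Fstl1 difference was not tested.

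Fndc5 is the gene of the transmembrane precursor that is cut to release irisin, a circulating peptide known for its effects on fat and bone. Its level was 8.50, 8.45, 8.59 and 8.77 on the unloaded arrays, against 9.18, 9.11, 9.33 and 9.26 on the weight bearing arrays. The groups were separated by 0.34. Fndc5 averaged 8.58 ± 0.14 in unloaded and 9.22 ± 0.10 in weight bearing muscle (SD, n = 4 each), a difference of -0.64 (SE 0.08, 95% interval -0.81 to -0.47) or 1.56-fold lower (limma adjusted p = 0.000310).

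Vegfb encodes a vascular endothelial growth factor that is abundant in oxidative tissues and acts on endothelial cells. It had one of the smaller differences but little spread: 9.43, 9.46, 9.55 and 9.53 on the unloaded arrays, against 9.82, 9.85, 9.90 and 9.87 on the weight bearing arrays. Every unloaded array was low and the gap between groups was 0.26. Vegfb averaged 9.49 ± 0.06 in unloaded and 9.86 ± 0.04 in weight bearing muscle (SD, n = 4 each), a difference of -0.36 (SE 0.05, 95% interval -0.47 to -0.26) or 1.29-fold lower (limma adjusted p = 0.000578).

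The start regions of Fstl1, Fndc5 and Vegfb are printed because these are 3 of the 4 members that stayed called under every one of the 18 alternative settings tried and moved in the same direction. Each window runs, 5′ to 3′ on the gene's strand, over 250 bases before and 50 bases after a transcription start given by RefSeq in mouse build GRCm38.p6. The RefSeq gene record of Fndc5 begins at position 129136870, inside the 250 bases before the start used here. The positions are chr16:37776805-37777104 on the plus strand for Fstl1, chr4:129136749-129137048 on the plus strand for Fndc5 and chr19:6987602-6987901 on the minus strand for Vegfb. Capitals mark every match of the 7 motifs searched on both strands, and in these windows all of them are GC boxes, the letters GGGCGG or their reverse complement.
Fstl1: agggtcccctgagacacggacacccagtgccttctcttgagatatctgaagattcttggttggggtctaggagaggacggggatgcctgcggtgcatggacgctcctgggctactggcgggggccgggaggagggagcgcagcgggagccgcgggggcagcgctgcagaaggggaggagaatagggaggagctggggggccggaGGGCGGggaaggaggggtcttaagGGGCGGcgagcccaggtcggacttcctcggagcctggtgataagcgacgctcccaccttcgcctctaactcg
Fndc5: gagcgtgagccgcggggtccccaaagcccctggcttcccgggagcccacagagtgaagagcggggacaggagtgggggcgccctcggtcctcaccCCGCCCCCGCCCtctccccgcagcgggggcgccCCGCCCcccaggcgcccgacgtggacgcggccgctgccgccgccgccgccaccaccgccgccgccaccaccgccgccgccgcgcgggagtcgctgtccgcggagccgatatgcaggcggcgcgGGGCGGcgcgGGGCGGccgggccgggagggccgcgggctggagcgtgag
Vegfb: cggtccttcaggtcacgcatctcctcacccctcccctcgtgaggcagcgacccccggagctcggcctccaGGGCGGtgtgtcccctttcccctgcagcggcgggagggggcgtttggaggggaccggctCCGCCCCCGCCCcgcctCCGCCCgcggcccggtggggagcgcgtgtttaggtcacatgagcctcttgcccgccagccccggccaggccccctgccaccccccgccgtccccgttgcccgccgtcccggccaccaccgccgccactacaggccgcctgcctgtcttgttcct
The Fstl1 window held 2 GC boxes, the Fndc5 window 5 and the Vegfb window 4, with adjoining boxes printed as 1 run of capitals. A GC box is the element known to bind Sp family factors, and 35.7% of all 32851 mouse windows of this length held at least 1. The windows were 66.7%, 82.3% and 75.3% G or C, against a median of 52.7% over all windows. Of the other motifs, the TATA box TATAAA (13.6% of all windows), the E-box CAGCTG of myogenic factors (16.3%), the FoxO element GTAAACA (3.65%), the AAGGTCA element of oestrogen-related receptors (4.72%), the cyclic AMP response element TGACGTCA (1.79%) and the kappaB element GGGANTTCC (1.68%), none was present in these 3 windows. Only GC boxes were found, so that no motif overlapped one of another kind. A match is a description of the letters and not of a bound site.

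Windows of 4 further members, Metrnl, Fgf6, Erfe and Bdnf, were also searched. The search of member windows left out chromosome 18, where Fgf1 lies. No window was available for Ostn and Il15, so these were not searched. The Metrnl window held 5 GC boxes and 1 E-box, and those of Fgf6 and Erfe 1 GC box each. The gene record of Erfe begins at position 91366305, inside the 250 bases before the start used. The 7 windows of Bdnf, a gene with many alternative first exons, held between 0 and 2 GC boxes, and 1 of them held an E-box. In the 13 windows of the 7 members there was no match to the TATA, FoxO, oestrogen-related receptor, cyclic AMP or kappaB letters.

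Ostn encodes osteocrin, also called musclin, a peptide of muscle and bone that occupies the natriuretic peptide clearance receptor. Its level was 7.61, 7.32, 6.82 and 7.14 on the unloaded arrays, against 8.01, 7.70, 8.12 and 7.88 on the weight bearing arrays. Unloaded replicate 1 was the highest of its group and lay only 0.09 below weight bearing replicate 2, and unloaded replicate 3 was the lowest array. Ostn averaged 7.22 ± 0.33 in unloaded and 7.93 ± 0.18 in weight bearing muscle (SD, n = 4 each), a difference of -0.71 (SE 0.15, 95% interval -1.04 to -0.38) or 1.63-fold lower (limma adjusted p = 0.00764). The call was lost in the 3 settings that use each gene's own variance alone (the methods' t-test, its equal-variance form and its form on linear values), at adjusted p between 0.0504 and 0.0781.

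Il15 encodes interleukin 15, a cytokine of muscle and immune tissue that sustains natural killer and memory T cells. Its level was 7.11, 7.25, 6.92 and 6.67 on the unloaded arrays, against 7.36, 7.25, 7.67 and 7.40 on the weight bearing arrays. The groups overlapped: unloaded replicate 2 lay marginally above weight bearing replicate 2. Il15 averaged 6.99 ± 0.25 in unloaded and 7.42 ± 0.18 in weight bearing muscle (SD, n = 4 each), a difference of -0.43 (SE 0.12, 95% interval -0.71 to -0.16) or 1.35-fold lower (limma adjusted p = 0.0310). This call was lost in 9 of 18 alternative settings. It was lost without unloaded replicate 3 (-0.41, adjusted p = 0.0753), unloaded replicate 4 (-0.33, 0.0660), weight bearing replicate 1 (-0.45, 0.0528), weight bearing replicate 3 (-0.35, 0.0749) or weight bearing replicate 4 (-0.44, 0.0567).

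Metrnl encodes meteorin-like, a factor released by exercised muscle and by fat and macrophages. Its level was 6.71, 6.84, 6.87 and 6.99 on the unloaded arrays, against 7.11, 7.01, 7.09 and 7.12 on the weight bearing arrays. The groups just failed to overlap, by 0.02. Metrnl averaged 6.85 ± 0.11 in unloaded and 7.08 ± 0.05 in weight bearing muscle (SD, n = 4 each), a difference of -0.23 (SE 0.06, 95% interval -0.37 to -0.09) or 1.17-fold lower (limma adjusted p = 0.0256). This call was lost in 8 of 18 alternative settings. It was lost without unloaded replicate 2 (-0.22, adjusted p = 0.0602), unloaded replicate 3 (-0.23, 0.0524), weight bearing replicate 1 (-0.22, 0.0621), weight bearing replicate 3 (-0.22, 0.0540) or weight bearing replicate 4 (-0.22, 0.0578). Of the 9 measured macrophage markers 7 were lower and 0 higher, beside 11.0% lower and 12.8% higher over all probe sets. Their summed linear levels were 1654 to 2054 in unloaded and 2286 to 2739 in weight bearing muscle. Of the 7 measured adipocyte markers 0 were lower and 1 higher, beside the same shares. Their summed levels overlapped, at 5164 to 6700 in unloaded and 4821 to 6008 in weight bearing muscle. The part of either cell type in the Metrnl difference was not tested.

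Fgf1 and Fgf6 are fibroblast growth factors, and both were lower in unloaded muscle. Fgf1 lacks a classical signal peptide and binds every fibroblast growth factor receptor, and its level was 7.99, 7.89, 7.90 and 8.01 on the unloaded arrays, against 8.29, 8.26, 8.30 and 8.32 on the weight bearing arrays. The weight bearing arrays lay close together and the groups were separated by 0.25. Fgf1 averaged 7.95 ± 0.06 in unloaded and 8.29 ± 0.02 in weight bearing muscle (SD, n = 4 each), a difference of -0.34 (SE 0.05, 95% interval -0.45 to -0.24) or 1.27-fold lower (limma adjusted p = 0.000818).

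Fgf6, a family member expressed mainly in muscle and linked to regeneration, was more variable. Its level was 7.08, 6.87, 6.75 and 6.86 on the unloaded arrays, against 7.65, 7.74, 7.28 and 7.10 on the weight bearing arrays. Weight bearing replicate 4 was the lowest of its group and lay 0.02 above unloaded replicate 1. Fgf6 averaged 6.89 ± 0.14 in unloaded and 7.44 ± 0.31 in weight bearing muscle (SD, n = 4 each), a difference of -0.55 (SE 0.13, 95% interval -0.85 to -0.25) or 1.47-fold lower (limma adjusted p = 0.0149). The 3 settings that use a gene's own variance did not call it, at adjusted p between 0.0715 and 0.150.

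Bdnf and Erfe did not pass the threshold. Bdnf encodes brain-derived neurotrophic factor, a neurotrophin that muscle also makes, and its level was 5.39, 5.38, 5.45 and 5.43 on the unloaded arrays, against 5.34, 5.32, 5.28 and 5.33 on the weight bearing arrays. All unloaded arrays were above all weight bearing arrays, by a small margin. Bdnf averaged 5.41 ± 0.03 in unloaded and 5.32 ± 0.03 in weight bearing muscle (SD, n = 4 each), a difference of 0.09 (SE 0.04, 95% interval -0.003 to 0.19, limma adjusted p = 0.144). The difference was 0.03 after quantile normalization of the deposited values. The methods' t-test called Bdnf higher, at an adjusted p of 0.0488 across all probe sets.

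Erfe encodes erythroferrone, or myonectin, which lowers hepcidin in the liver by binding bone morphogenetic proteins. Its level was 5.22, 5.35, 5.47 and 5.61 on the unloaded arrays, against 5.24, 5.18, 5.18 and 5.25 on the weight bearing arrays. Unloaded replicate 1 lay among the weight bearing arrays and the other 3 lay above them. Erfe averaged 5.41 ± 0.17 in unloaded and 5.21 ± 0.04 in weight bearing muscle (SD, n = 4 each), a difference of 0.20 (SE 0.08, 95% interval 0.03 to 0.37, limma adjusted p = 0.0885). Without unloaded replicate 1 the difference was 0.26 and passed (limma adjusted p = 0.0233), and without unloaded replicate 4 it was 0.13.

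Both of these genes were dim. The 1259 probe sets of olfactory and vomeronasal receptors, which muscle is not known to use, had a median level of 3.36 and a 95th percentile of 5.16. The means over all arrays of Bdnf and Erfe lay within 1 log2 unit of that percentile, and those of the other 8 members lay more than 1 above it. Of those receptor probe sets 61 were called higher in unloaded muscle and 3 lower.

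**Figure D2:**
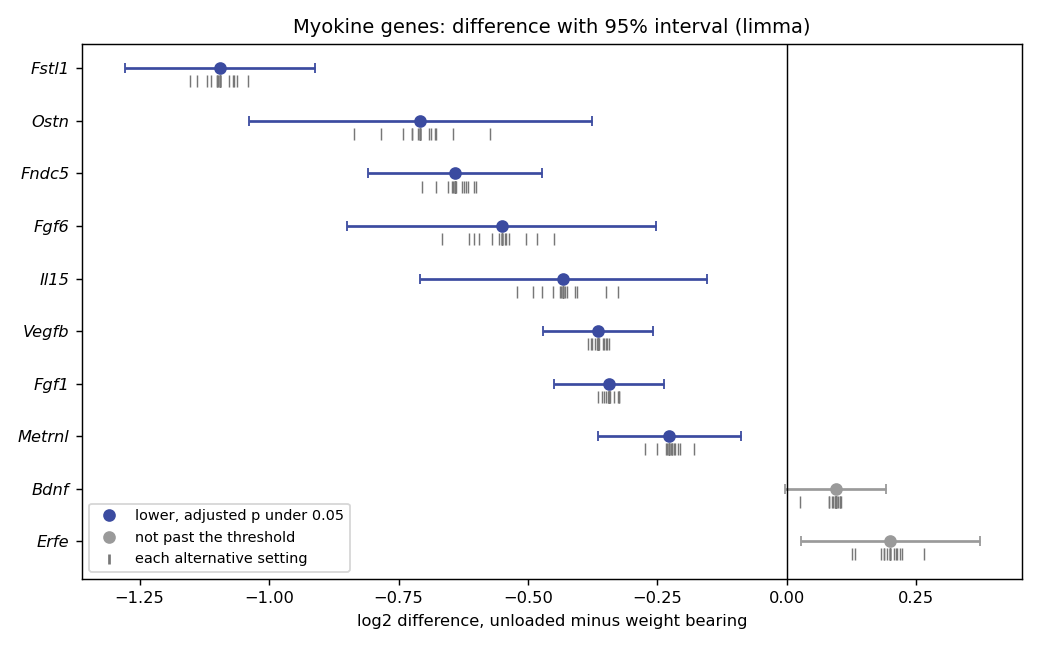
Difference of mean log2 expression, unloaded minus weight bearing, for the 10 myokine genes, with the 95% interval of the limma fit. Grey ticks under each point are the differences under the alternative settings. The points run from -1.10 for Fstl1 to 0.20 for Erfe, and no tick of any gene lies on the other side of 0.

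Beyond the group difference, the 10 genes did not vary as a block from array to array. The deviations from the group means were positively correlated in 23 of the 45 pairs of genes and negatively in 22, with a median r of 0.05 over the 8 arrays. The highest was that of Metrnl and Erfe, at 0.94, followed by 0.77 for Fndc5 and Metrnl, and the lowest was -0.78, for Il15 and Bdnf. These values describe 8 arrays that were normalised together, and they carry no test.

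Of the receptors and binding partners of the 10 factors, 14 of 22 were not called. Of the 22 measured genes of 23 listed, 5 were higher (22.7%, beside 12.8% of all probe sets) and 3 were lower (13.6%, beside 11.0%) in unloaded muscle, with a median difference of 0.01 and a range from -0.51 to 0.29. Nrp1, neuropilin 1, a co-receptor for Vegfb, had levels of 8.79, 8.60, 8.70 and 8.69 on the unloaded arrays, against 9.10, 9.17, 9.23 and 9.27 on the weight bearing arrays. Its groups did not overlap. It was 1.41-fold lower (difference -0.50, 95% interval -0.62 to -0.37, limma adjusted p = 0.000278), whereas Flt1, the receptor of Vegfb, differed by 0.02 (95% interval -0.08 to 0.12) and was not called. Of the 10 endothelial cell markers 3 were lower and 0 higher, beside 11.0% lower and 12.8% higher over all probe sets. The 3 were Kdr (-0.47), Emcn (-0.37) and Eng (-0.22). Pecam1 (0.08), Cdh5 (-0.08), Tek, Tie1, Esam, Egfl7 and Vwf were not called, though the unloaded arrays of Cdh5 lay below all weight bearing arrays. The summed linear levels of the 10 markers were 4440 to 4548 in unloaded and 4707 to 5257 in weight bearing muscle. The part of endothelial cells in the Nrp1 and Vegfb differences was not tested.

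The integrin chains through which irisin is reported to act differed in opposite directions. Itgav was 1.28-fold lower, at 8.59 ± 0.02 in unloaded and 8.95 ± 0.07 in weight bearing muscle (limma adjusted p = 0.000766), and Itgb5 was 1.21-fold higher, at 10.09 ± 0.09 in unloaded and 9.82 ± 0.07 in weight bearing muscle (SD, n = 4 each, limma adjusted p = 0.00702). Neither pair of groups overlapped. Both chains also pair with other partners in matrix adhesion.

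Among the fibroblast growth factor receptors Fgfr1, which muscle progenitors and stroma are known to express, was higher, opposite in direction to Fgf1 and Fgf6. Fgfr1 levels were 10.12, 10.17, 10.18 and 10.14 on the unloaded arrays, against 9.87, 9.92, 9.88 and 9.96 on the weight bearing arrays. All unloaded arrays were above all weight bearing ones, and the difference of 0.25 (95% interval 0.15 to 0.35) is 1.19-fold (limma adjusted p = 0.00327). Fgfr2, Fgfr3, Fgfr4 and Fgfrl1 were not called, with differences of -0.19, 0.07, -0.09 and -0.16.

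Sort1, or sortilin, a sorting receptor that carries pro-neurotrophins, was 1.23-fold higher, at 9.46 ± 0.04 in unloaded and 9.17 ± 0.05 in weight bearing muscle (SD, n = 4 each, limma adjusted p = 0.00199). Ntrk2, the signalling receptor of Bdnf, had a difference of -0.19 and was not called (limma adjusted p = 0.0547), though it was called lower in 5 alternative settings, among them without unloaded replicate 4 (-0.23, adjusted p = 0.0380). Ngfr, the p75 receptor, differed by -0.02 and was not called.

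The bone morphogenetic proteins that Fstl1 and Erfe are known to bind did not move together. Bmp2 was 1.42-fold lower, at 5.68 ± 0.15 in unloaded and 6.18 ± 0.09 in weight bearing muscle (limma adjusted p = 0.00137), and Bmp4 was 1.22-fold higher, at 7.97 ± 0.05 in unloaded and 7.69 ± 0.08 in weight bearing muscle (SD, n = 4 each, limma adjusted p = 0.00385). The groups of both genes were separate. Bmp2 was dim, with a mean over all arrays within 1 log2 unit of the 95th percentile of the olfactory receptor probe sets. Bmp6 differed by -0.01 and Dip2a, a proposed receptor of Fstl1, by 0.02, and neither was called.

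Il2rb, the signalling chain shared by the receptors of interleukins 2 and 15, was the eighth called gene of this list, at 4.94 ± 0.11 in unloaded and 4.71 ± 0.12 in weight bearing muscle (SD, n = 4 each, difference 0.23, limma adjusted p = 0.0498). Its groups overlapped, its mean lay below the 95th percentile of the olfactory receptor probe sets, and its call was lost in 13 of 17 alternative settings. Leaving out unloaded replicate 2, 3 or 4 or weight bearing replicate 1, 2 or 4 ended the call, with differences of 0.19 to 0.25 and adjusted p between 0.0705 and 0.124. Il15ra, which presents interleukin 15, differed by 0.04 and was not called.

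The natriuretic peptide receptors, with which osteocrin interacts, were not called. Npr3, the clearance receptor that osteocrin occupies, had levels of 7.49, 7.65, 6.88 and 7.91 on the unloaded arrays, against 7.50, 7.49, 7.30 and 7.60 on the weight bearing arrays. Its unloaded arrays spread on both sides of the others, and the interval of its difference of 0.01 was wide, from -0.39 to 0.41. Npr1 and Npr2, the signalling receptors, differed by 0.02 and -0.09, and Npr2 was called lower in the 3 settings with a gene's own variance only (adjusted p between 0.0365 and 0.0470). Kit, the receptor described for Metrnl, differed by 0.03 and was not called.

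**Figure D3:**
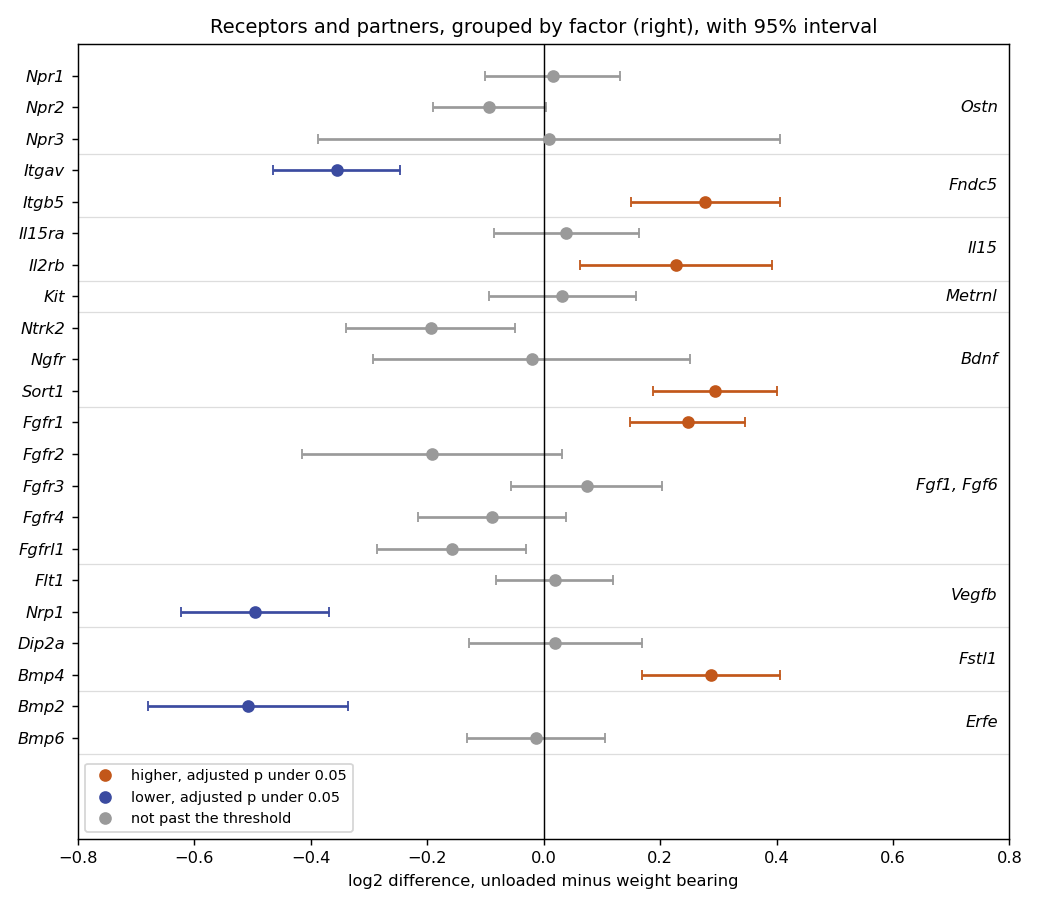
Difference of mean log2 expression, unloaded minus weight bearing, with the 95% limma interval, for the 22 measured receptors and binding partners, grouped by the factor named at the right. The 5 higher and 3 lower genes are coloured, and the 3 lower genes Bmp2, Nrp1 and Itgav have the differences farthest from 0.

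Relatives of the 10 factors by sequence or family were measured for 33 of 36 listed genes. Of these, 7 were lower (21.2%, beside 11.0% of all probe sets) and 4 higher (12.1%, beside 12.8%), and the median difference was 0.02. With the dimmest 50% of probe sets removed, 2328 of the remaining 10606 were lower, so the share of lower relatives was not above that of brighter probe sets. Among the higher relatives, the mean of Fstl4 lay below the 95th percentile of the olfactory receptor probe sets. The call of Fstl3, also higher, was lost in 6 of 18 alternative settings. Metrn, or meteorin, the closest relative of Metrnl, was 1.55-fold lower, at 6.96 ± 0.06 in unloaded and 7.59 ± 0.11 in weight bearing muscle (SD, n = 4 each, limma adjusted p = 0.000119). Among the 8 measured C1q and tumour necrosis factor related proteins, the family of Erfe, C1qtnf6 (-0.70), C1qtnf3 (-0.66), C1qtnf1 (-0.42) and C1qtnf2 (-0.35) were lower, C1qtnf4 (0.64) was higher and C1qtnf7 (0.19), C1qtnf9 (-0.04) and C1qtnf12 (0.13) were not called. The last 3 and C1qtnf2 were named after their values were seen, the C1qtnf2 call was lost without weight bearing replicate 1 (-0.29, adjusted p = 0.0535) and in the 3 settings with a gene's own variance, and without weight bearing replicate 4 C1qtnf7 was called higher (0.28, adjusted p = 0.0159). C1qtnf4 levels were 7.30, 7.44, 7.73 and 7.50 on the unloaded arrays, against 6.90, 6.88, 6.92 and 6.69 on the weight bearing arrays, with no overlap, and its call was lost on linear values (adjusted p = 0.0517). C1qtnf6 and C1qtnf3 were dim, with means of 5.85 and 5.70 over all arrays. Both lay within 1 log2 unit of the 95th percentile of the olfactory receptor probe sets.

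Of the other vascular endothelial growth factors, 1 was called higher, 1 lower and 2 were not called. Vegfd, a ligand of the lymphatic receptor, was 1.40-fold higher, at 7.30 ± 0.08 in unloaded and 6.81 ± 0.07 in weight bearing muscle (SD, n = 4 each, limma adjusted p = 0.000293). Vegfa, the main angiogenic factor, was lower than in weight bearing muscle, with a difference of -0.40. Vegfc (-0.23, limma adjusted p = 0.0547) and Pgf (0.15, 0.0737) were not called, and Vegfc was called lower in 5 alternative settings, among them without weight bearing replicate 3 (-0.29, adjusted p = 0.0245). Fndc4, the closest relative of Fndc5, was lower by the same amount (-0.40). Vegfa, Vegfc, Pgf and Fndc4 were chosen for the text after their values were seen, as were Fst (0.00), Fgf2 (-0.01) and Fgf21 (0.06), which were not called.

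Other factors that muscle is known to secrete were measured for 27 of 30 listed genes. Of these, 11 were lower (40.7%, beside 11.0% of all probe sets) and 0 were higher (beside 12.8%). At an unadjusted p under 0.05, 1 was higher, Il10, beside 4669 of all 21212 probe sets. Limma without weight bearing replicate 4 also called Il10 higher. The mean of Il10 lay below the 95th percentile of the olfactory receptor probe sets. The calls of Ctsb and Bmp7 were lost in 8 of 18 and 8 of 17 alternative settings. Angptl4, an inhibitor of lipoprotein lipase, had levels of 5.63, 5.72, 5.30 and 6.02 on the unloaded arrays, against 7.77, 7.45, 7.33 and 6.18 on the weight bearing arrays. Weight bearing replicate 4 was low and lay next to unloaded replicate 4. The difference of -1.52 (95% interval -2.16 to -0.87) is 2.86-fold lower by limma (adjusted p = 0.00462), and the methods' t-test did not call it (adjusted p = 0.0794).

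Timp1, an inhibitor of matrix metalloproteinases, had levels of 5.39, 5.60, 5.85 and 5.64 on the unloaded arrays, against 6.99, 7.24, 6.97 and 7.17 on the weight bearing arrays. Its groups were more than 1 unit apart, and it was 2.77-fold lower (limma adjusted p = 1.2e-05). Sparc, a collagen-binding matricellular protein, was 2.05-fold lower and Serpinf1, or pigment epithelium-derived factor, 1.58-fold lower. Gdf11, a relative of myostatin, fell by 0.43. Igf1, the growth factor of muscle mass, was 1.39-fold lower with overlapping groups (limma adjusted p = 0.0207), and its call was lost without unloaded replicate 2 (-0.47, adjusted p = 0.0530), weight bearing replicate 1 (-0.44, 0.0553) or weight bearing replicate 2 (-0.41, 0.0528), and in the 3 settings with a gene's own variance (adjusted p between 0.0842 and 0.155). Mstn, or myostatin, and Il6, both chosen after their values were seen, differed by 0.06 and -0.03 and were not called, and the mean of Il6 lay below the 95th percentile of the olfactory receptor probe sets.

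Regulators named for these factors comprised transcription factors, coactivators, a kinase, deacetylases and the proprotein convertases that cut precursors. Of 22, all measured, 9 were lower (40.9%, beside 11.0% of all probe sets) and 7 higher (31.8%, beside 12.8%), and the median difference was -0.14. Some of these calls were not stable. Those of Hdac4 (higher), Epas1 (lower) and Mef2c (lower) were lost in 11, 11 and 7 of 18 alternative settings. Ppargc1a, the coactivator of mitochondrial genes whose overexpression led to the description of irisin, had levels of 9.33, 9.19, 9.44 and 9.29 on the unloaded arrays, against 9.69, 9.61, 9.76 and 9.59 on the weight bearing arrays. Its groups did not overlap, and it was 1.28-fold lower (limma adjusted p = 0.00356). Ppargc1b was 1.28-fold lower (limma adjusted p = 0.0185) and Esrra, the nuclear receptor that partners both, 1.19-fold lower (limma adjusted p = 0.0191). The methods' t-test called neither Ppargc1b (adjusted p = 0.102) nor Esrra (adjusted p = 0.0616). The Esrra call was lost without weight bearing replicate 1 (-0.22, adjusted p = 0.0546).

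Nr4a3 and Nr4a1, orphan nuclear receptors known to be induced by exercise, were lower by 1.94-fold and 1.43-fold, and the Nr4a3 call was lost on linear values (adjusted p = 0.0631). Foxo1, a transcription factor of the atrophy programme, was 1.57-fold higher, at 8.88 ± 0.14 in unloaded and 8.23 ± 0.08 in weight bearing muscle (SD, n = 4 each, limma adjusted p = 0.000221). Of the 4 convertases, Furin was 1.28-fold higher, Pcsk6 was 1.42-fold lower and Pcsk5 was 1.20-fold lower, each with no overlap between groups, and Pcsk7 (0.06) was not called. Pcsk5 and Pcsk7 were chosen for the text after their values were seen.

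**Figure D4:**
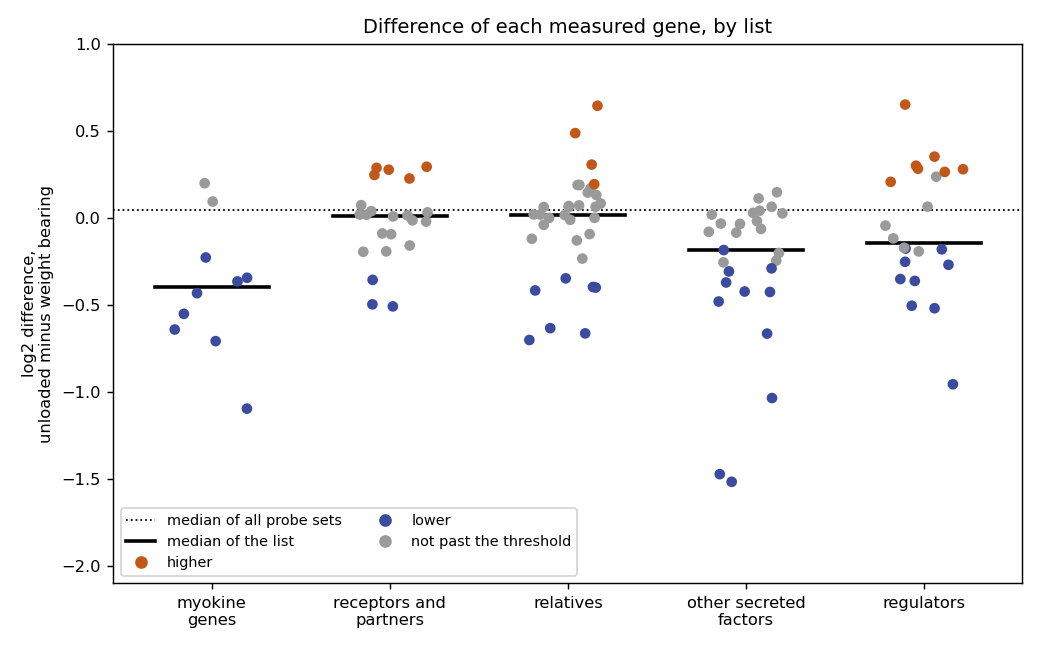
Difference of mean log2 expression, unloaded minus weight bearing, of every measured gene of 5 lists, 1 point a gene, coloured by its call. Black bars are list medians (-0.40 for the myokine genes, 0.01 for receptors and partners, 0.02 for relatives, -0.18 for other secreted factors and -0.14 for regulators), and the dotted line is the median of all probe sets, 0.04.

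For each called member the 3 named probe sets with the highest Pearson r over the 8 arrays were looked up. Such an r holds the group difference, the arrays are shared, and the genes were picked as the highest of all, so the values are a description. For Fstl1 they were Col1a2 (r = 0.997), Clec11a (0.996) and Sparc (0.995), a collagen chain, a secreted growth factor of bone and the matricellular protein above. For Fndc5 they were Sdhc (0.996) and Sdhd (0.991), membrane subunits of succinate dehydrogenase, and Homer2 (0.990). For Vegfb they were Cox7a1 (0.998), a cytochrome c oxidase subunit of muscle, Alkbh7 (0.996), a mitochondrial protein, and Thy1 (0.995), a surface marker of fibroblasts and lymphocytes. In the same order, deviations from the group means had r of 0.97, 0.93 and 0.89 with Fstl1. The values were 0.96, 0.90 and 0.92 with Fndc5, and 0.96, 0.95 and 0.97 with Vegfb. Picking genes by r over the same arrays favours such values, so they add no support.

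The other called members had Ckap4 (0.993), Cxcl12 (0.991) and Glt8d1 (0.990) closest to Fgf1, and Cep112 (0.987), Ptger4 (0.983) and Fbln7 (0.979) closest to Fgf6. Those of Ostn were Exoc5 (0.984), Pla2g7 (0.978) and Ube3c (0.977). Those of Il15 were Snx27 (0.974), Psma1 (0.963) and Odf2l (0.962), and those of Metrnl were Klhl34 (0.976), Emc10 (0.973) and Cluh (0.968). Not all of these were called themselves: Exoc5, Snx27, Psma1, Odf2l, Emc10, Cluh, Cep112 and Fbln7 had limma adjusted p between 0.0683 and 0.131.

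**Figure D5:**
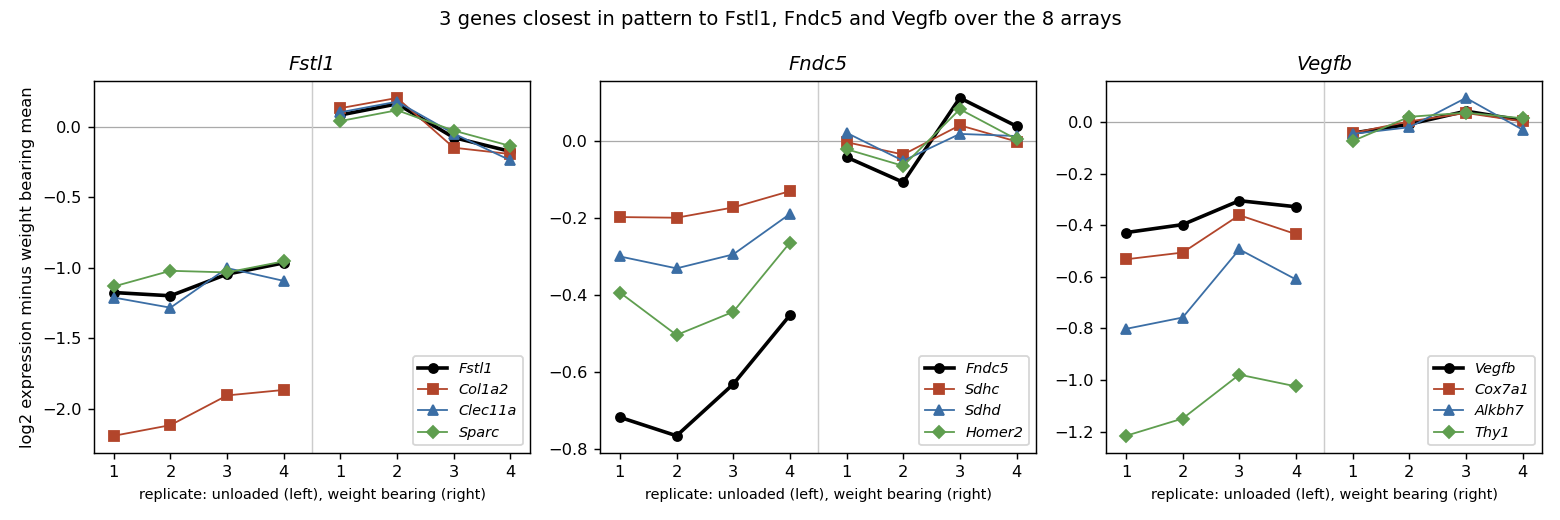
Log2 expression minus the weight bearing mean on each array for Fstl1, Fndc5 and Vegfb (black) and the 3 genes with the highest r over the 8 arrays. Unloaded arrays are on the left and weight bearing arrays on the right of each panel, and the lines only join points of 1 gene, since replicates have no order. The genes share a profile but not a size, as with Col1a2, whose difference of -2.02 exceeds that of Fstl1.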

How the data were processed

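Total RNA of 8 muscle samples (4 per group, each RNA integrity number at least 8 per the labels) was profiled on Affymetrix Mouse Gene 1.0 ST arrays. The authors applied RMA with Brainarray custom probe set definitions, 1 probe set per Entrez gene, and deposited log2 expression values. The sources used here give neither the release of the definitions nor their genome build. RMA equalises array distributions, so a shift common to most genes would not show.

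The deposited log2 values of all 8 columns were used without scaling or filter, and 0 columns were left unused. Symbols came from the platform annotation: 18786 probe sets had 1 symbol, 6 several and 2420 none. The groups were compared by limma 3.58.1 under R 4.3.3 (lmFit and eBayes, two-sided p). The p-values of all 21212 probe sets were adjusted together by Benjamini-Hochberg. Folds were obtained by raising 2 to the log2 difference. Python 3.11.15 with pandas 2.3.3 and numpy 2.4.6 was used for lists, motifs and figures. Start regions were those of RefSeq (GRCm38.p6), matched by symbol for 7 members, with chromosome 18 left out and none available for Ostn and Il15. Precision is limited by 4 arrays per group. Each sample was an independent RNA preparation. The labels do not tie a preparation to 1 animal in so many words.

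The members and the gene lists were chosen with earlier results of these data known. Named were all members, every called receptor, up to 6 called genes with the largest absolute difference in each other list, and receptors or upstream factors of a member. The methods name a parametric t-test without the form of its variance, and its q-values were replaced here by Benjamini-Hochberg adjustment. The 18 alternatives were: the methods' t-test, taken with unequal variances, on log2 or linear values, and with equal variances on log2 values; limma with array weights, with a robust trended prior, or with a replicate block; removal of the dimmest 25% or 50% of probe sets; quantile or median normalization; and removal of each array in turn.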

Additional observations from a re-analysis of the deposited data

Results flagged for a closer look

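No array of the 10 myokine genes stood apart from its group by Dixon's ratio of gap to range (20 groups of 4 arrays tested, 95% critical value). Of 108 groups of the 54 genes examined, 7 had such an array, and chance gives about 1 in 20. Itgb5 on weight bearing replicate 4 was 9.91, against 9.78 to 9.79 on the other 3. Ngfr on weight bearing replicate 3 was 7.15, against 6.51 to 6.62. Sort1 on weight bearing replicate 3 was 9.245, against 9.13 to 9.15. Fgfr3 on unloaded replicate 1 was 6.30, against 6.35 on each of the others. Fgfrl1 on weight bearing replicate 4 was 8.11, against 7.93 to 7.96. Flt1 on unloaded replicate 1 was 8.87, against 8.81 to 8.82. Esrra on unloaded replicate 1 was 7.48, against 7.67 to 7.70.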

How the results depend on the processing

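Under the 18 alternatives (17 for Bdnf and Erfe, which the removal of the dimmest 50% left out) the differences of Fstl1, Fndc5, Vegfb and Fgf1 stayed past the threshold, and no member changed direction. The methods' t-test, its equal-variance form and its form on linear values each called 4 members lower, in place of 8. In that order, Ostn had differences of -0.71, -0.71 and -0.69 (adjusted p = 0.0781, 0.0504 and 0.0533), Il15 -0.43, -0.43 and -0.42 (0.126, 0.106 and 0.118), Metrnl -0.23, -0.23 and -0.22 (0.0953, 0.0550 and 0.0834) and Fgf6 -0.55, -0.55 and -0.57 (0.112, 0.0715 and 0.150). The first 2 each called 1 member higher, Bdnf (0.0943, adjusted p = 0.0488 and 0.0369). The methods' t-test called 1393 probe sets higher and 1374 lower on log2 values, and 1349 and 1279 on linear values, in place of 2715 and 2324. These 2 settings also called 5 and 5 other secreted factors lower, in place of 11, and 5 and 3 regulators lower, in place of 9, and the linear one called 2 relatives higher, in place of 4.

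With each array left out in turn, 1802 to 2852 probe sets were higher, 6 to 8 members were lower, 0 to 1 members and 0 to 1 other secreted factors were higher, and the differences ranged over -0.52 to -0.33 for Il15, -0.27 to -0.18 for Metrnl, -0.84 to -0.57 for Ostn, -0.67 to -0.45 for Fgf6, 0.08 to 0.11 for Bdnf and 0.13 to 0.26 for Erfe. Without unloaded replicate 1, Erfe was called higher.

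The labels number the replicates 1 to 4 in both groups. Deviations of same-numbered arrays correlated at 0.02, 0.04, 0.12 and 0.10, and 3 of the 4 unloaded arrays correlated best with their own number. Nothing in the labels ties equal numbers together and 3 of the 4 correlations were 0.1 or less, so the numbers were not taken to pair the samples. With the replicate block 2455 probe sets were higher and 2213 lower, 7 members were lower, and Il15 (-0.43, adjusted p = 0.0509) was the 1 member whose call changed. For the 104 other list genes, the outcome (called or not called) was unchanged in 1720 gene and setting combinations. These include genes that were not called to begin with and stayed so. A call was lost in 89 of the combinations and gained in 20. A called difference turned its direction in 0 of them. Differences near 0 that were never called could change sign, such as that of Bmp6 (-0.04 to 0.01 with each array left out in turn). Bdnf and Erfe lay within 1 log2 unit of the 95th percentile of probe sets for olfactory receptors, which limits what can be read from them.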
